A study of Rattus norvegicus with 30 samples.

Results

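The 12 livers compared here came from Wistar rats that had lost 70% of the liver (PH70, 6 rats) or 30% of it (PH30, 6 rats), out of 30 rats in the series. The arrays were chosen by the treatment stated for each rat, before any value was used. All 12 rats were labelled wildtype, each gave 1 array, and tissue was taken 24 hours after the operation. The 6 sham-operated rats, which kept the whole liver, are given as a level beside both resections. The series also holds 6 rats that had lost 90% of the liver and 6 unoperated rats. These enter the centring and the fits of all arrays but are not compared here. The sources used here give neither age nor sex. RNA came from a single small piece of each frozen liver, measured on Affymetrix Rat Gene 2.0 ST arrays that carried 18166 named genes.

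After a large partial hepatectomy the remnant grows back largely through division of its own hepatocytes. Within the first day or so after a large resection in rats, hepatocytes pass from G1 into DNA synthesis, and mitosis follows. A smaller resection is known to call a weaker and later wave of division. Setting PH70 against PH30 at a single time therefore asks how the expression state of the remnant varies with the amount of liver removed.

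All values are log2, centred for each probe set on its median over the 30 arrays. A value of 0 is thus the typical array of the series and not an absence of RNA. Levels cannot be read from such values, so the label liver could not be checked against levels of hepatocyte genes. A difference is PH70 minus PH30, and the number after ± is its standard error unless SD is named. The tissue is bulk, so fewer cells of a type and less RNA per cell cannot be told apart.

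A pair of rats, called the odd rats here, did not resemble their own groups. Averaged over arrays, rat 139 (PH70) correlated at -0.114 with its own group, at -0.004 with PH30 and at 0.203 with sham. Rat 95 (PH30) correlated at 0.498 with PH70 and at -0.113 with its own group. Array weights fitted by limma, which are near 1 for a typical array, were 0.41 for rat 139 and 0.35 for rat 95 and between 0.70 and 1.42 for the other 10 rats. Whether a label, the operation or the animal differed was not tested. Both rats stay in the main fit, and a second fit leaves them out. Every rise or fall reported here is from the main fit unless the fit without them is named. These rats were recognised from their own expression, so leaving them out widens the difference by construction, and calls made without them are descriptive. Counts from that second fit are to be read against the 8.87% of all genes called higher and the 4.45% called lower in it.

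With all 12 rats, 320 genes were higher in PH70 and 93 were lower at an adjusted p below 0.05 (limma), which is 1.76% and 0.512% of the 18166 genes tested. Counts in gene lists with all rats are to be read against these shares. Without rats 139 and 95 the counts were 1611 higher and 809 lower, 8.87% and 4.45% of the genes. Of the 413 genes called with all rats, 409 were called without the 2 rats, all 409 in the same direction. Most differences were small. Only 5 genes were at least 2-fold higher and 1 at least 2-fold lower among those called with all rats, against 182 and 10 without rats 139 and 95. The median difference over all genes was -0.017.

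The number of calls depended on every rat. Leaving out rat 95 alone gave 1911 calls and leaving out rat 139 alone gave 1406. Leaving out any other single rat lowered the count, to between 18 calls without PH30 rat 98 and 126 without PH30 rat 130. A fit of the 12 arrays without the other 18 called 2 genes, Rps8l1 and Ube2g2, both higher in PH70, while 2614 genes had an unadjusted p below 0.05. The fit of all 30 arrays shares 1 estimate of spread per gene over the 5 groups, the 90% resected and unoperated rats included. For Rfc4, a replication gene, the SD was 0.96 in PH70 and 0.81 in PH30 but 0.19 in sham. Where the resected groups vary more than the others, standard errors and adjusted p values can be smaller than the 12 rats alone would give. Of 52 genes named here that were called with all rats, 6 kept the call whichever rat was left out: Eif4e, H2ac20, Polb, Prkar2a, Rps8l1 and Ube2g2. Without rats 139 and 95 the difference was larger in size in 50 of the 52.

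The typical spread within groups was somewhat larger in PH30 than in PH70. The median SD over genes was 0.132 in PH70, 0.148 in PH30 and 0.121 in sham rats. Without rat 139 it was 0.117 in PH70, and without rat 95 it was 0.131 in PH30. The PH70 SD was the larger in 41.6% of genes, and in 41.5% without the 2 rats. An SD above 0.5 was seen in 383 genes in PH70, 373 in PH30 and 111 in sham livers, and in 122 and 172 genes without rats 139 and 95. In the groups not compared here it was seen in 496 genes after 90% resection and in 75 in unoperated rats.

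**Figure D1:**
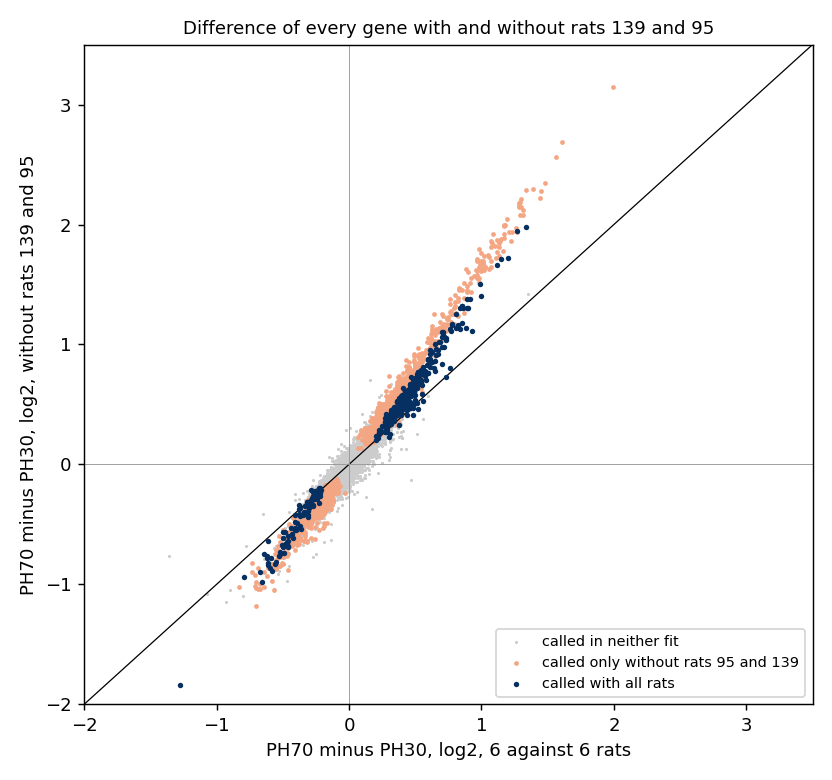
Each point is a gene, with the log2 difference PH70 minus PH30 over 6 against 6 rats on the x axis and the difference without rats 139 and 95 on the y axis. Dark points were called with all rats (413 genes) and orange points only without rats 139 and 95, and the large rises lie above the line of equal values.

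Rats 139 and 95 lay on the other group's side for most of the genes that parted the other 10 rats. Rat 95 was nearer the PH70 mean than the PH30 mean in 84.0% of the 1611 genes higher in PH70 and in 78.1% of the 809 genes lower. Rat 139 was nearer the PH30 mean in 69.0% and 61.6% of the same genes. The crossing was not complete: rat 139 stayed nearer its own group in 31.0% of the genes higher in PH70, and rat 95 in 16.0%.

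Part of the DNA replication genes were higher in PH70. The replication list holds the helicase, its loaders and the polymerases and clamps of the fork. Of its 40 members, 11 rose with all rats, against 1.76% of all genes, 0 fell, and the median difference was 0.61. With rats 139 and 95 left out, 37 of 40 were called higher, with a median of 0.96. Rfc4, a subunit of the complex that loads the sliding clamp, ranged from -0.24 to 2.31 in PH70 livers, with a median of 2.02, and from -0.70 to 1.61 in PH30 livers, with a median of 0.20. The low end in PH70 was rat 139 and the high end in PH30 was rat 95. The other 10 rats did not overlap, with PH70 at 1.65 or above and PH30 at 0.76 or below. Rfc4 rose by 1.34 ± 0.33 (adjusted p = 0.036, limma), or 2.53-fold, and the difference was 1.98 ± 0.22 without rats 139 and 95.

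Prim1, which makes the RNA primers of new DNA strands, rose by 1.20 ± 0.32 (adjusted p = 0.042, limma). Gins1, a subunit of the replicative helicase, rose by 0.90 ± 0.22 (adjusted p = 0.035, limma). Mcm6, part of the helicase ring, was not called with all rats, at 1.12 ± 0.35 (adjusted p = 0.081, limma). Its PH70 values were 2.08 to 2.44 apart from rat 139 at 0.00, and its PH30 values were -0.00 to 1.10 apart from rat 95 at 2.13. The sliding clamp Pcna differed by 1.06 ± 0.31, also without a call (adjusted p = 0.06, limma). Leaving both odd rats out put Prim1 at 1.72, Gins1 at 1.3, Mcm6 at 1.77 and Pcna at 1.63. Leaving out any single rat other than 139 and 95 left 0 to 2 of the 40 replication genes called, whereas 37 were called without rat 139 and 33 without rat 95.

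Deoxynucleotide synthesis supplies the building blocks of new DNA. Of 10 measured genes, 2 rose, 0 fell, and 9 were called higher without rats 139 and 95. Tyms, which makes thymidylate, ranged from 0.02 to 1.88 in PH70, with a median of 1.53, and from -0.76 to 1.69 in PH30, with a median of -0.04. Tyms rose 2.22-fold, by 1.15 ± 0.28 (adjusted p = 0.035, limma). Umps, of the pyrimidine pathway, rose by 0.56 ± 0.12 (adjusted p = 0.02, limma). The differences without the odd rats were 1.71 for Tyms and 0.81 for Umps, and 0 to 2 of the list were called with any other rat left out. Rrm2, the regulated subunit of ribonucleotide reductase, had the greatest distance between the groups among the genes named here, 1.99 ± 0.60, yet missed the threshold with all rats (adjusted p = 0.067, limma). It stood at -0.05 in rat 139 and at 3.78 in rat 95, and without them the difference was 3.15 ± 0.39, with PH70 at 2.98 to 3.99 and PH30 at -0.48 to 1.94.

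Mitotic genes had larger differences than replication genes but fewer calls. In the list of mitotic kinases and spindle genes 6 of 51 rose, 0 fell, and the median difference was 1.0. All 51 were called higher without rats 139 and 95, at a median of 1.7. Mad2l1, a spindle checkpoint protein, ranged from 0.08 to 2.19 in PH70, with a median of 1.93, and from -0.62 to 2.21 in PH30, with a median of -0.01. Mad2l1 rose by 1.27 ± 0.33 (adjusted p = 0.042, limma). Bub1b, of the same checkpoint, rose by 0.91 ± 0.24 (adjusted p = 0.0451, limma). In the second fit Mad2l1 stood at 1.95 and Bub1b at 1.38. Leaving out any single rat other than 139 and 95 left 0 to 1 of the 51 called.

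Mki67, the proliferation marker, was 1.34 ± 0.52 higher without a call (adjusted p = 0.16, limma). Its PH70 livers ran from 2.0 to 3.0 except rat 139 at -0.26, and its PH30 livers from -0.55 to 1.65 except rat 95 at 3.10. Top2a, the topoisomerase of dividing cells, differed by 1.56 ± 0.52 (adjusted p = 0.095, limma), and Plk1, a mitotic kinase, by 1.29 ± 0.46 (adjusted p = 0.12, limma). The second fit put Mki67 at 2.29, Top2a at 2.56 and Plk1 at 2.19. The spread in the full groups was wide, with an SD of 1.24 in PH70 and 1.37 in PH30 for Mki67, against 0.30 in sham. Within PH30, rat 130 came next to rat 95, with Mki67 at 1.65, Rrm2 at 1.94 and Top2a at 1.66. The list mean in rat 130 was 0.88, and the other 4 PH30 rats lay between -0.22 and 0.25. Every PH30 rat had a mitotic list mean above the sham range of -0.55 to -0.40.

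**Figure D2:**
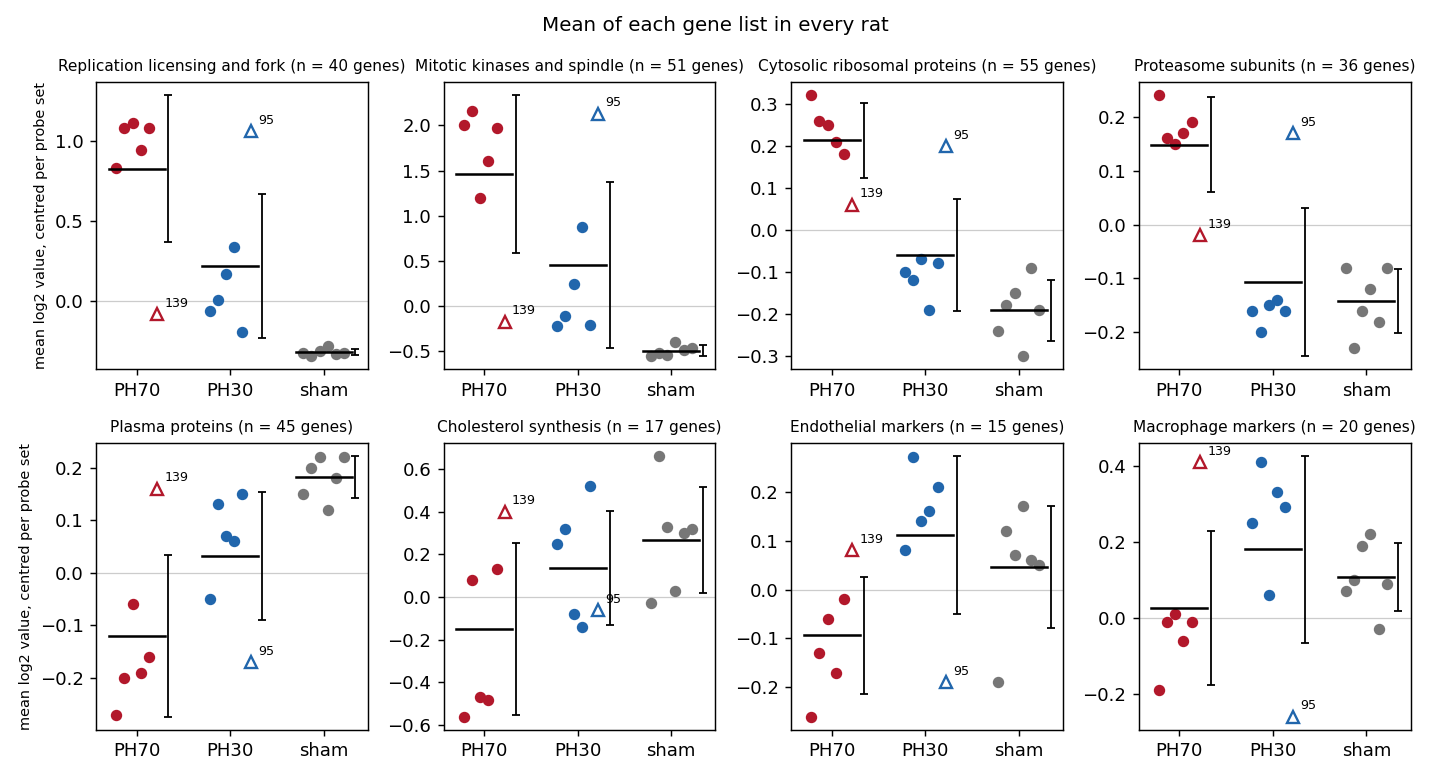
Mean centred log2 value of 8 gene lists in every PH70, PH30 and sham rat (circles; open triangles mark rats 139 and 95; black lines are means over 6 rats and bars are SD). In the replication and mitosis panels rat 139 sits with the PH30 rats and rat 95 with the PH70 rats.

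Among 18 cyclins, kinases and regulators of S phase and G2/M, 3 rose and 0 fell, with 17 called higher without rats 139 and 95. The 3 were Cdc25a (0.37 ± 0.08), a phosphatase that activates cyclin-dependent kinases, Skp2 (0.43 ± 0.11), which marks their inhibitors for destruction, and Pkmyt1 (0.76 ± 0.21), a kinase that restrains Cdk1. Adjusted p values were 0.02, 0.04 and 0.0497 (limma), and the differences without the odd rats were 0.46, 0.52 and 1.13. Any other rat left out singly gave 0 to 2 calls in this list. The cyclins of S phase and mitosis were further apart but less even: Ccna2 differed by 1.3 ± 0.45 (adjusted p = 0.11, limma) and Ccnb1 by 1.39 ± 0.45 (adjusted p = 0.091, limma). Cdk1, their kinase partner, differed by 1.31 ± 0.40 (adjusted p = 0.073, limma). In the second fit Ccna2 stood at 2.21, Ccnb1 at 2.3 and Cdk1 at 2.12. The ranges of Ccnb1 met even without rats 139 and 95, from 0.92 to 2.92 in PH70 and from -0.43 to 1.04 in PH30.

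The transcription regulators of these programs include the E2F factors, their Rb-family partners and the MuvB complex. Of 18 measured, 4 rose: Uhrf1 by 1.12 ± 0.29, E2f7 by 0.71 ± 0.19, E2f1 by 0.61 ± 0.17 and Tfdp1 by 0.51 ± 0.13. Uhrf1 maintains DNA methylation after replication, E2f1 activates S-phase genes, E2f7 represses them, and Tfdp1 is the dimer partner of the activators. Adjusted p values were 0.042, 0.0477, 0.0469 and 0.043 (limma). Foxm1, which drives mitotic genes, differed by 1.01 ± 0.35 (adjusted p = 0.11, limma), and the Rb-family member Rbl1 by 0.76 ± 0.27 (adjusted p = 0.12, limma). In the second fit 11 of 18 were called higher, Uhrf1 at 1.66, E2f7 at 1.1, E2f1 at 0.86, Tfdp1 at 0.75, Foxm1 at 1.68 and Rbl1 at 1.34. Leaving out any single rat other than 139 and 95 left 0 called.

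Among 24 repair and checkpoint genes 2 rose, Fanci by 0.78 ± 0.20 (adjusted p = 0.037, limma) and Chek1 by 0.60 ± 0.16 (adjusted p = 0.042, limma). Fanci acts in crosslink repair and Chek1 is the kinase of the replication checkpoint. H2ax, the histone variant marked at breaks, differed by 1.19 ± 0.41 (adjusted p = 0.11, limma), and 23 of 24 were called higher without rats 139 and 95, Fanci at 1.17, Chek1 at 0.88 and H2ax at 2.05. With any other single rat left out, 0 of the 24 were called. H2ac20, a core histone gene, rose by 0.93 ± 0.18 (adjusted p = 0.018, limma), with rat 139 the lowest of PH70 at 0.24, rat 95 inside PH30 at 0.18, and the highest PH30 rat at 0.69. Its difference without the odd rats was 1.11.

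**Figure D3:**
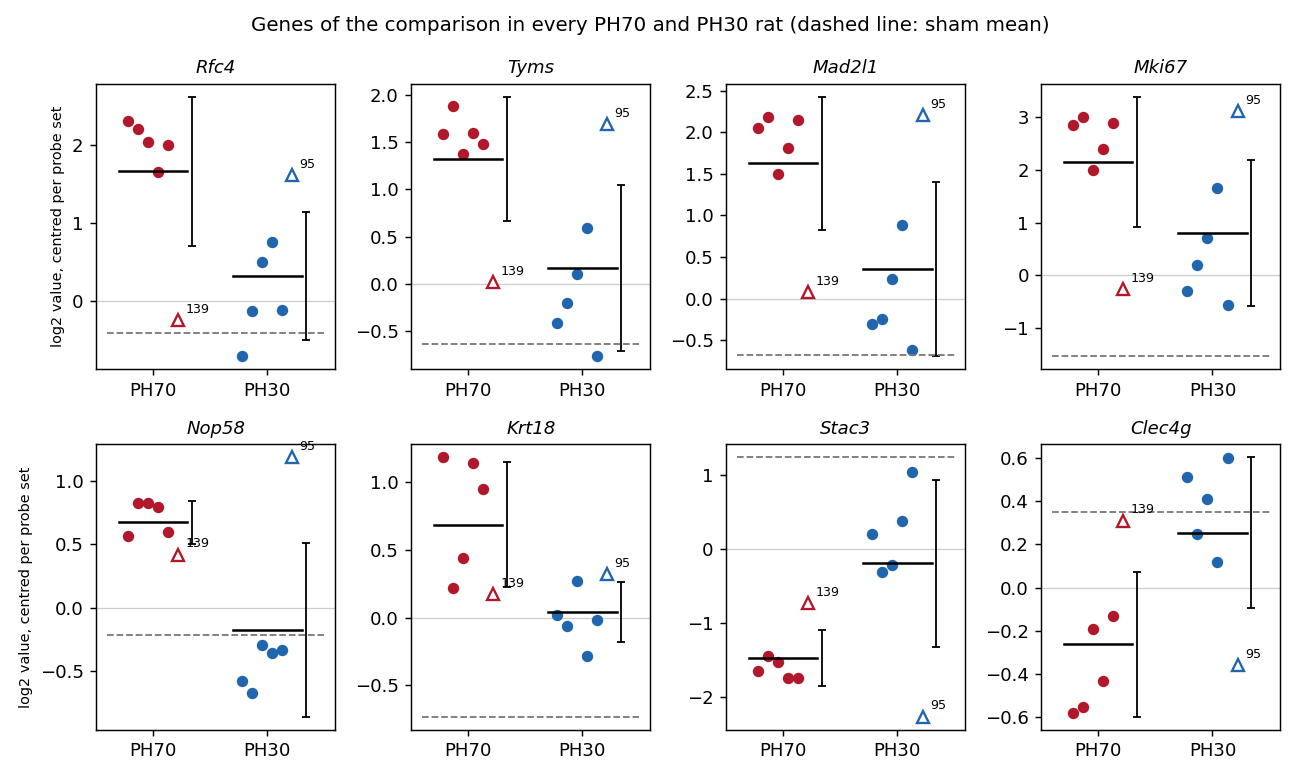
Centred log2 values of 8 genes in every PH70 and PH30 rat (circles; open triangles mark rats 139 and 95; black lines are means, bars are SD over 6 rats, and the dashed line is the sham mean). Rat 139 lies among or near the PH30 rats for Rfc4, Tyms, Mad2l1 and Mki67, while for Nop58 it lies at 0.42, just below the other PH70 rats.

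The promoters of replication and mitotic genes held different short sequences, and examples are shown. Of these, Tyms comes from the deoxynucleotide list and Cdk1 from the S and G2/M regulators. With all rats the median differences of the replication and mitotic lists, 0.61 and 1.0, were among the largest of the lists read. Sequences are RefSeq promoters of the rat (build GRCr8), written 5′ to 3′ on the strand of the gene. Capitals mark the cell cycle homology element (CHR, TTTGAA), known from human and mouse cells as a binding site of MuvB complexes, in Mad2l1, Bub1b and Cdk1, and an E2F-type match (TTTCCCGC, TTTGGCGC, TTTCGCGC or TTTGCCGC) in Tyms, Gins1 and Cdk1. Both strands were searched. The regions are chr4:97236439-97236558 (plus strand), chr3:126016997-126017116 (plus), chr9:120776034-120776153 (minus), chr3:160184850-160184969 (plus) and chr20:19265143-19265342 (plus). Each runs to base 50 after the annotated start.
Mad2l1: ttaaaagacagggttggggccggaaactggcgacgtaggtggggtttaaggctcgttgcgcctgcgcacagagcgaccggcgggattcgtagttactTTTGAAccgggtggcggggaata
Bub1b: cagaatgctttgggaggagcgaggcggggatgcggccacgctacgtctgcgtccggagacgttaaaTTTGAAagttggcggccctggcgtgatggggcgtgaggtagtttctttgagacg
Tyms: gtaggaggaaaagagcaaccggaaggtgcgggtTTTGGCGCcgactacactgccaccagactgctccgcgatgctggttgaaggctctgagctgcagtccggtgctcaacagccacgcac
Gins1: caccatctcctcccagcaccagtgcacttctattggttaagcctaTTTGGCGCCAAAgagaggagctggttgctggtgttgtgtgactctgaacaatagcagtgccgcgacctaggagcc
Cdk1: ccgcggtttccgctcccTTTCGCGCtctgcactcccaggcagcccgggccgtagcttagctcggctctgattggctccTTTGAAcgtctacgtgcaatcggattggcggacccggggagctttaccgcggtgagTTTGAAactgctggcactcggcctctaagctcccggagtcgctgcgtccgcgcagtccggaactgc

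In Gins1 the 8-base match on each strand overlaps the other and forms a single palindrome. Among mitotic genes with a promoter in the table, 34 of 46 (73.9%) held TTTGAA in the window of 250 bases before to 50 bases after the start, against 5 of 35 replication genes (14.3%). The share was 15.9% of the 14564 array genes with a promoter and 18.3% of all 33469 promoters. The E2F-type letters stood in 15 of 35 replication promoters (42.9%) and 9 of 21 repair promoters (42.9%), and in 0 of 46 mitotic promoters. They stood in 3.07% of array genes and 2.14% of all promoters. Among S and G2/M regulators TTTGAA stood in 8 of 14 promoters (57.1%) and the E2F-type letters in 2 (14.3%). In the deoxynucleotide list each stood in 2 of 7 promoters (28.6%). CCAAT, on either strand, was found in 71.7% of mitotic, 62.9% of replication and 85.7% of S and G2/M regulator promoters, against 37.9% of array genes and 37.5% of all promoters. A match describes the letters and not an occupied site.

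Entry genes of the cycle did not differ at the threshold with all rats. Among 18 G1 cyclins, Myc and immediate early genes 0 were called (limma, with 3 higher and 0 lower at an unadjusted p below 0.05), and 2 were called higher without rats 139 and 95, Ccnd1 and Cdk4, at 1.26 and 0.44. Ccnd1, the G1 cyclin of hepatocytes, differed by 0.81 ± 0.29 with all rats (adjusted p = 0.12, limma). It stood at 0.74 to 1.52 in 5 PH70 rats, at -0.75 in rat 139, at -0.33 to 0.17 in 5 PH30 rats and at 0.71 in rat 95. Rat 139 was thus inside the sham range of -0.87 to -0.37. Myc differed by 0.16, with a 95% interval from -0.32 to 0.63.

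No p53 target was called with all rats among 14 measured (0 higher, 0 lower, limma, and 3 higher and 1 lower at an unadjusted p below 0.05). Cdkn1a, the p21 inhibitor of cyclin-dependent kinases, differed by 0.89 ± 0.31 (adjusted p = 0.11, limma) and Ccng1 by 0.60 ± 0.25 (adjusted p = 0.19, limma). Without rats 139 and 95 both were called, at 1.44 ± 0.22 and 1.05 ± 0.17, with 4 of the list higher and 1 lower, the stress gene Sesn1 at -0.47. PH30 rat 95 had the highest value of all 12 rats for both, 1.71 for Cdkn1a and 1.57 for Ccng1.

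Some genes that build and run ribosomes were higher in PH70. Of 30 ribosome biogenesis genes 5 rose, 0 fell, and all 30 had a positive difference, with a median of 0.28. With both odd rats left out, 15 were called higher, and with any other single rat left out, 0 to 1. The 5 were Nop58 (0.85 ± 0.21) and Nhp2 (0.71 ± 0.18), proteins of the particles that modify ribosomal RNA, Rrs1 (0.57 ± 0.14), Ncl (0.53 ± 0.10) and Bop1 (0.33 ± 0.09), which act in the nucleolus. Adjusted p values lay between 0.018 for Ncl and 0.0467 for Bop1 (limma). The second fit put the 5, in the same order, at 1.18, 1.08, 0.78, 0.67 and 0.40. Nop58 ran from 0.42 to 0.83 in PH70 and from -0.68 to -0.30 in PH30 except rat 95 at 1.19, so that all 6 PH70 rats, rat 139 included, lay above 5 of the 6 PH30 rats.

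Further groups of this kind were read after the values had been seen. Of 55 cytosolic ribosomal protein genes 19 rose and 0 fell, with a median of 0.28. Of 60 translation factor and tRNA synthetase genes 9 rose and 0 fell, with a median of 0.21, and of 36 proteasome subunits 10 rose and 0 fell, with a median of 0.25. Without rats 139 and 95 the counts higher were 33, 31 and 27. With any other single rat left out they were 2 to 10, 1 to 5 and 1 to 6. Rpl3, of the large subunit, rose by 0.53 ± 0.11 (adjusted p = 0.019, limma). Eif4e, the cap-binding factor, rose by 0.61 ± 0.11 (adjusted p = 0.014, limma) and the proteasome ATPase Psmc2 by 0.45 ± 0.11 (adjusted p = 0.035, limma). These 3 stood at 0.75, 0.81 and 0.57 in the second fit. In the proteasome list means, the 5 PH70 rats lay at 0.15 to 0.24 with rat 139 at -0.02, and the 5 PH30 rats at -0.20 to -0.14 with rat 95 at 0.17, close to the sham range of -0.23 to -0.08.

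Chaperones rose in part. Of 31 chaperone and unfolded protein response genes 5 rose and 0 fell: Creld2 by 0.76 ± 0.18, Hspd1 by 0.54 ± 0.11, Hsp90ab1 by 0.50 ± 0.10, Hspa8 by 0.48 ± 0.12 and Hsp90b1 by 0.44 ± 0.12. Creld2 and Hsp90b1 work in the endoplasmic reticulum, Hspd1 is the mitochondrial chaperonin, and Hsp90ab1 and Hspa8 are cytosolic. Adjusted p values were 0.033, 0.019, 0.019, 0.039 and 0.0497 (limma). In the fit without the pair, 8 were called higher and 1 lower, and the list median was 0.12, against 0.21 with all rats. Creld2 then stood at 0.80, Hspd1 at 0.69, Hspa8 at 0.60 and Hsp90b1 at 0.45. Any other single rat left out gave 0 to 3 calls higher. Hspd1 averaged 0.41 in PH70 (SD 0.30), -0.13 in PH30 (SD 0.14) and -0.35 in sham (SD 0.19).

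The Creld2 promoter is shown for its CCAAT boxes, which belong to the known response elements of endoplasmic reticulum stress. It holds 3 matches in capitals, the letters reading ATTGG where the match is on the opposite strand (chr7:121789214-121789433, plus strand). CCAAT was found in 21 of 27 promoters of this list (77.8%), against 37.9% of array genes. The share was as high or near it in lists of other function, 84.6% for cholesterol synthesis, 85.7% for S and G2/M regulators and 71.7% for mitotic genes.
Creld2: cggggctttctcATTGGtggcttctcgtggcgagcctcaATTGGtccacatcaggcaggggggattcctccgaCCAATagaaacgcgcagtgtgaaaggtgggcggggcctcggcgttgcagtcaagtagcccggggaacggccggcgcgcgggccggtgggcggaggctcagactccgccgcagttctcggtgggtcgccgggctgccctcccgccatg

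**Figure D4:**
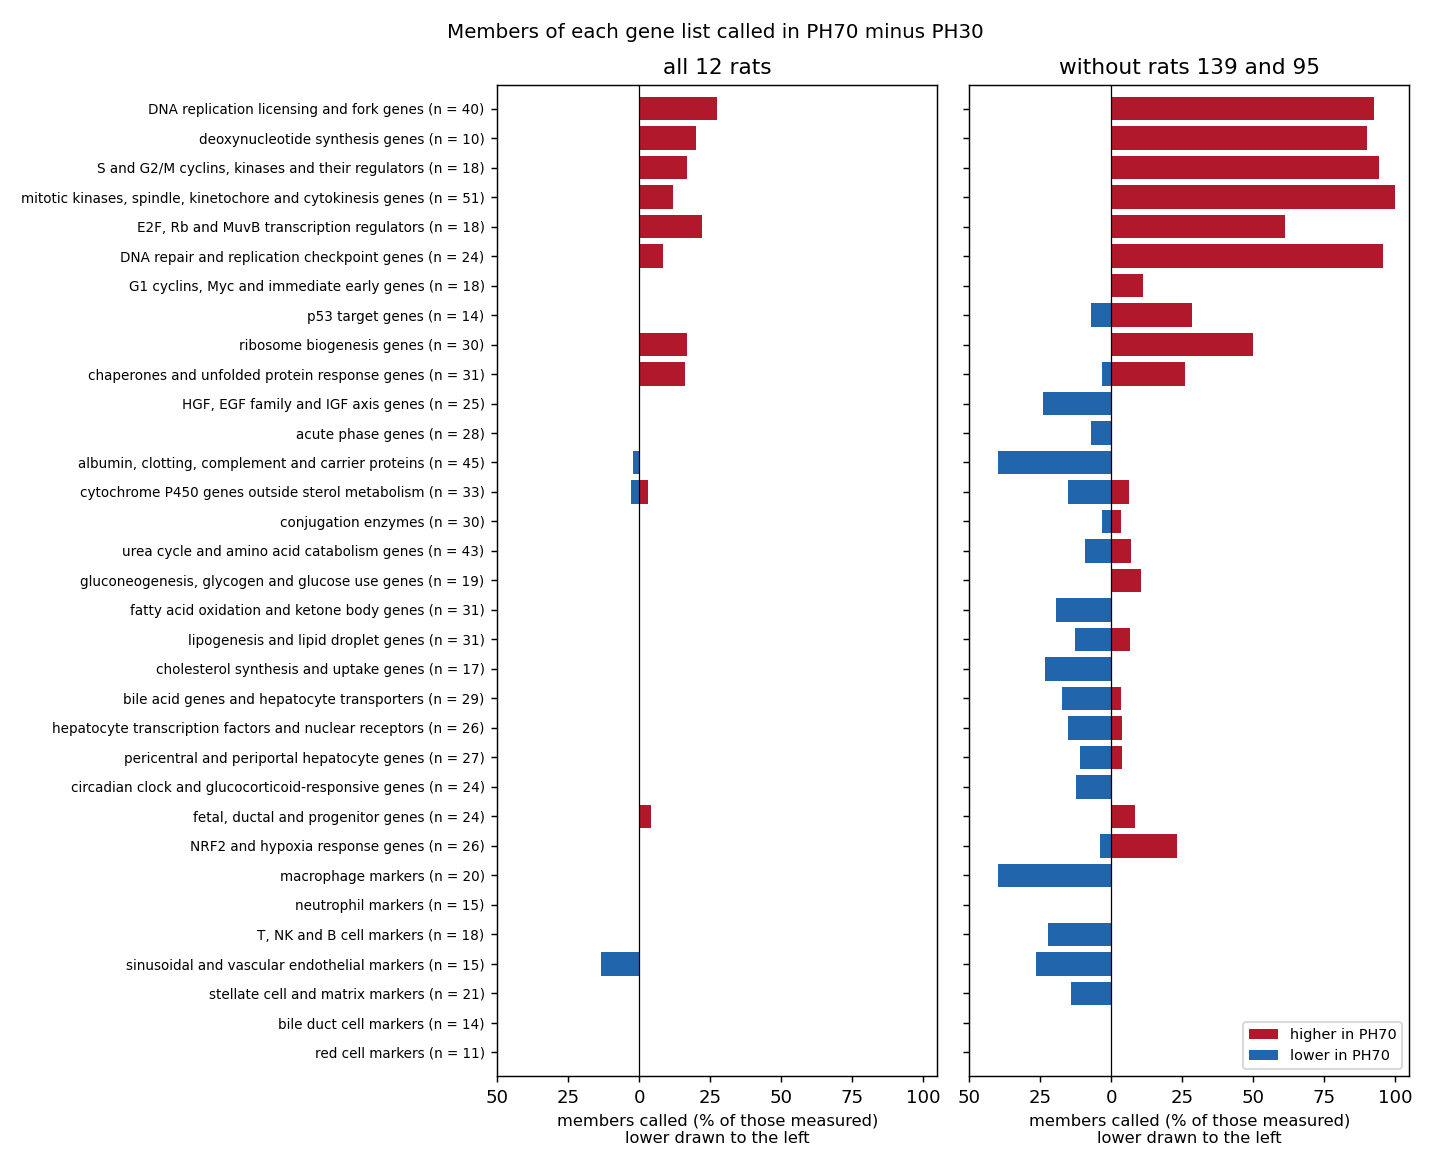
Share of the measured members of each gene list that were called higher (red, right) or lower (blue, left) in PH70 minus PH30, with all 12 rats in the left panel and without rats 139 and 95 in the right panel. With all rats the calls lie in the cell division, ribosome biogenesis and chaperone lists apart from single genes and 2 endothelial markers, and without the 2 rats plasma protein and macrophage genes were called lower.

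A small set of genes separated the groups completely. In 57 genes all 6 PH70 rats lay above all 6 PH30 rats (0.314% of genes), and in 54 all lay below (0.297%). Of these, 32 and 18 were called. None of the 40 replication and 51 mitotic list genes was in this set. At the shares of 0.314% and 0.297% over all genes, lists of this size would hold few or none. Leaving out rat 95 brought the counts to 543 and 327, leaving out rat 139 to 339 and 203, and leaving out both to 1377 and 701. Leaving out any other single rat raised them too, to 68 to 82 and 76 to 98, as fewer rats part more easily.

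Prkar2a, a regulatory subunit of protein kinase A, ran from 0.05 to 0.48 in PH70, with a median of 0.44, and from -0.78 to 0.03 in PH30, with a median of -0.45. It rose by 0.73 ± 0.14 (adjusted p = 0.018, limma), and the difference was 0.73 without rats 139 and 95. Ube2g2, a ubiquitin-conjugating enzyme of endoplasmic reticulum quality control, rose by 0.51 ± 0.09 (adjusted p = 0.013, limma), and Polb, the base excision repair polymerase, by 0.48 ± 0.08 (adjusted p = 0.013, limma). Polb in rat 139 was 0.49, the highest of all 12 rats, and in rat 95 it was -0.04, the highest of PH30. These genes were picked for having no overlap, so the odd rats lie on their own side by that choice.

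Nufip1 and Rpf2, which act in the assembly of small nucleolar particles and of the large ribosomal subunit, rose by 0.46 ± 0.10 and 0.45 ± 0.09 (adjusted p = 0.019 and 0.018, limma). Hsp90ab1 ran from 0.13 to 0.61 in PH70 and from -0.35 to 0.10 in PH30. Rps8l1, named as a ribosomal protein like gene, rose by 0.56 ± 0.10 (adjusted p = 0.013, limma). Its probes can share sequence with the parent gene, so the source of this signal is uncertain.

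Among genes lower without overlap, Scap, the sterol-sensing escort of the SREBP transcription factors, ran from -0.34 to -0.06 in PH70 and from 0.04 to 0.77 in PH30, and fell by 0.50 on the log2 scale (SE 0.10, adjusted p = 0.018, limma). Vwce, which holds von Willebrand factor type C domains, fell by 0.64 (SE 0.16, adjusted p = 0.04, limma) and Cbln3 by 0.61 (SE 0.16, adjusted p = 0.039, limma). Marf1 fell by 0.34 (SE 0.07, adjusted p = 0.019, limma) and Txnrd3, a thioredoxin reductase, by 0.35 (SE 0.09, adjusted p = 0.039, limma). The chemokine Cxcl9 did not overlap between groups but was not called, at -0.48 ± 0.18 (adjusted p = 0.14, limma). Of the 54, 8 were odorant receptor genes, and 1 odorant receptor gene, Olr1096, was among the 57 that were higher. Odorant and vomeronasal receptors made up 1345 of the 18166 genes on the array. Without overlap, 8 of 1345 lower is a larger share than the 0.297% of all genes. The 1 of 1345 higher is a smaller share than the 0.314% of all genes. With all rats 4 were called lower, a smaller share than the 0.512% of all genes. None was called higher, against 1.76% of all genes, and the median difference was -0.03. In the second fit Scap stood at -0.56, Vwce at -0.75, Cbln3 at -0.64, Marf1 at -0.40, Txnrd3 at -0.42 and Cxcl9 at -0.53.

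**Figure D5:**
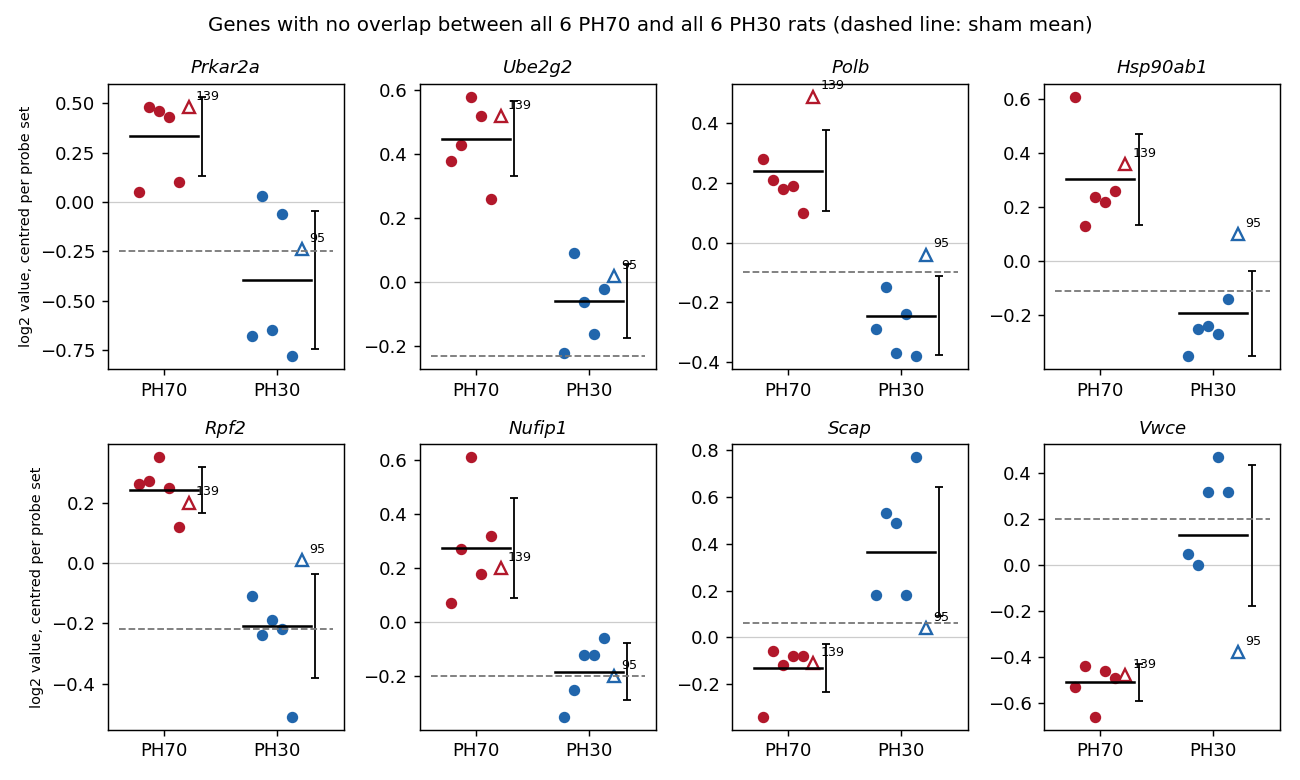
Centred log2 values of 8 genes with no overlap between 6 PH70 and 6 PH30 rats (circles; open triangles mark rats 139 and 95; black lines are means, bars are SD, and the dashed line is the sham mean). Polb is highest in rat 139, and in Vwce rat 95 at -0.38 lies just above the highest PH70 rat at -0.44.

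Other single genes outside the lists fell too. Stac3, known as a part of the calcium release machinery of muscle, fell most, by 1.28 (SE 0.31, adjusted p = 0.035, limma), or 2.42-fold. It ran from -1.74 to -0.73 in PH70, with a median of -1.58, and from -2.26 to 1.04 in PH30, with a median of 0.00, against 0.74 to 1.48 in sham. The lowest PH30 value, -2.26, was rat 95, below every PH70 rat, and the highest PH70 value was rat 139. Pink1, the kinase that marks damaged mitochondria, fell by 0.66 (SE 0.17, adjusted p = 0.041, limma). Apon, apolipoprotein N, fell by 0.67 (SE 0.16, adjusted p = 0.035, limma), Sts, steroid sulfatase, by 0.62 (SE 0.17, adjusted p = 0.0456, limma), and Edar, the ectodysplasin receptor, by 0.61 (SE 0.13, adjusted p = 0.02, limma). Leaving out the odd rats put Stac3 at -1.84, Pink1 at -0.98, Apon at -0.90, Sts at -0.76 and Edar at -0.84.

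Secreted plasma protein genes showed a single call with all rats. Of 45, 1 fell, Plg, the precursor of plasmin, by 0.23 (SE 0.06, adjusted p = 0.039, limma), and 4 of 45 had a positive difference, with a median of -0.14. Without rats 139 and 95, 18 were called lower and 0 higher, at a median of -0.25, with Plg at -0.32. With any other single rat left out, 0 were called. The 18 called lower without rats 139 and 95 include Serpina6, the carrier of glucocorticoids, at -1.0 ± 0.15. Klkb1, plasma prekallikrein (-0.76 ± 0.13), and F13b, of clotting factor XIII (-0.59 ± 0.11), are also among them. With all rats these stood at -0.67, -0.47 and -0.42 with no call. Albumin itself, Alb, differed by -0.01, with a 95% interval from -0.07 to 0.06.

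With all rats, 1.76% of all genes were called higher and 0.512% lower. At those shares, each list of hepatocyte metabolism would hold few calls or none. Of 33 cytochrome P450 genes 1 rose and 1 fell: Cyp4a1, a fatty acid hydroxylase and PPARα target in rats, by 0.70 ± 0.19 (adjusted p = 0.0467, limma), and Cyp2c23 by -0.48 ± 0.12 (adjusted p = 0.039, limma). With both odd rats left out, 2 were called higher and 5 lower, among them Cyp2b2 (-1.02 ± 0.34) and Cyp2j3 (-0.85 ± 0.18), with Cyp4a1 at 0.84 and Cyp2c23 at -0.56. The share called higher was thus near the 8.87% of all genes, and that called lower above the 4.45%. These counts are small, and the shares were not tested. Any other single rat left out gave 0 calls. The male-predominant Cyp2c11 differed by -0.29 ± 0.18 (adjusted p = 0.43, limma) and by -0.26 in the second fit, with means of -0.40 in PH70 (SD 0.27), -0.11 in PH30 (SD 0.25) and 0.70 in sham (SD 0.19). Cyp7a1, the rate-limiting enzyme of bile acid synthesis, varied too widely to place, with an interval from -1.18 to 0.81.

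Fatty acid oxidation and cholesterol synthesis had 0 calls of 31 and 17 genes with all rats (limma). At an unadjusted p below 0.05, 4 and 5 were lower and 2 and 0 higher. In the fit without the pair, 6 and 4 were called lower and 0 higher. Ppara, the receptor that drives fatty acid oxidation, stood at -0.64 ± 0.26 with all rats (adjusted p = 0.19, limma) and at -0.90 ± 0.27 without the 2 rats. Cpt1a, the gate of mitochondrial fatty acid entry, stood at -0.50 ± 0.23 and -0.77 ± 0.23. In the cholesterol list 1 of 17 genes had a positive difference, with a median of -0.24, Sc5d at -0.53 ± 0.15 (adjusted p = 0.0517, limma) and Cyp51 at -0.58 ± 0.21 (adjusted p = 0.14, limma). These 2 stood at -0.74 and -0.83 without the odd rats. PH70 rats were themselves split in this list, with means of -0.56, -0.48 and -0.47 in 3 rats and 0.08, 0.13 and 0.40 in the other 3.

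The urea cycle and amino acid list had 0 calls of 43 with all rats (limma, with 2 higher and 5 lower at an unadjusted p below 0.05), with 3 higher and 4 lower without rats 139 and 95. The share higher was near the 8.87% of all genes and the share lower was above the 4.45%, both on small counts and not tested. Otc, of the urea cycle, stood at -0.35 ± 0.13 (adjusted p = 0.13, limma), and Kmo, of tryptophan breakdown, at -0.71 ± 0.23 (adjusted p = 0.094, limma), and at -0.48 and -1.01 in the second fit. Among 29 bile acid and transporter genes 0 were called with all rats (limma, with 1 higher and 3 lower at an unadjusted p below 0.05), and 1 higher and 5 lower in the second fit. Abcb1b, a drug efflux pump, had a difference of 1.61 ± 0.53 (adjusted p = 0.093, limma), and Slc10a1, which takes up bile acids, of -0.42 ± 0.17 (adjusted p = 0.17, limma). Their differences without the odd rats were 2.69 and -0.65. Abcb1b was at 2.02 to 3.08 in 5 PH70 rats and -0.27 in rat 139, and at -1.14 to 0.77 in 5 PH30 rats and 3.49 in rat 95. In the redox list Txnrd1, the cytosolic thioredoxin reductase, stood at 0.34 ± 0.10 (adjusted p = 0.073, limma).

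Growth factor and receptor genes were not called with all rats, 0 of 25 (limma, with 0 higher and 6 lower at an unadjusted p below 0.05). Without rats 139 and 95, 6 were called lower and 0 higher. Met, the receptor of hepatocyte growth factor, stood at -0.35 ± 0.11 with all rats (adjusted p = 0.083, limma) and at -0.47 ± 0.10 without them. Igfbp3 stood at -0.54 ± 0.22 and Igfals at -0.38 ± 0.23, which both carry circulating IGF1, and Igf1 itself at -0.13 ± 0.07. The second fit put these 3 at -0.78, -0.66 and -0.22. Hgf, the ligand of Met, differed by -0.03, with an interval from -0.45 to 0.38, and its sign changed when single rats were left out.

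In the list of fetal, ductal and progenitor genes 1 of 24 rose, the keratin Krt18, by 0.64 ± 0.15 (adjusted p = 0.029, limma). Its partner Krt8 stood at 0.50 ± 0.20 (adjusted p = 0.18, limma) and was called without rats 139 and 95, at 0.82, with Krt18 at 0.80. Krt18 ran from 0.17 to 1.18 in PH70 and from -0.28 to 0.32 in PH30, against -0.96 to -0.33 in sham.

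Some markers of other liver cells were lower. Of 15 endothelial markers 2 fell, Clec4g by 0.52 (SE 0.14, adjusted p = 0.045, limma) and Gpr182 by 0.50 (SE 0.12, adjusted p = 0.035, limma), both known from sinusoidal endothelium. With rats 139 and 95 left out Dnase1l3 and Oit3, of the same cells, were called lower too, at -0.87 ± 0.14 and -0.61 ± 0.13, with Clec4g at -0.75 and Gpr182 at -0.61. The mean of the endothelial list ran from -0.26 to 0.08 in PH70, from -0.19 to 0.27 in PH30 and from -0.19 to 0.17 in sham. Leaving out any of the other 10 rats left 0 of the 15 called.

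Of 20 macrophage markers 0 were called with all rats (limma, with 1 higher and 6 lower at an unadjusted p below 0.05), with a median of -0.20, and 8 were called lower without rats 139 and 95. Clec4f, the Kupffer cell lectin of rodents, stood at -0.33 ± 0.17 with all rats and -0.63 ± 0.12 without the 2 rats, Adgre1 at -0.36 ± 0.16 and -0.63 ± 0.13, Siglec1 at -0.45 ± 0.15 and -0.63 ± 0.14, and Csf1r at -0.36 ± 0.14 and -0.52 ± 0.14. The list mean ran from -0.19 to 0.41 in PH70 and from -0.26 to 0.41 in PH30, with rat 139 at the top of PH70 and rat 95 at the bottom of PH30. Of 18 T, NK and B cell markers 4 were called lower without the 2 rats, Cd4 at -0.64 ± 0.15, and 0 with all rats (limma, with 0 higher and 5 lower at an unadjusted p below 0.05). Neutrophil, bile duct and red cell markers had 0 calls in either fit, of 15, 14 and 11 genes (limma). At an unadjusted p below 0.05, 1 neutrophil marker was higher and 1 lower with all rats, and 0 markers of the other cell types. The part of these cell types in the other differences was not tested.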

How the data were processed

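The deposited values come from the series' table, 29489 probe sets by 30 arrays. Per the submitters' processing notes the authors made them with RMA in Affymetrix Expression Console, with versions not stated there. RMA yields log2 values, and the deposited log2 values had a median of 0 within 5e-07 for every probe set, so they were centred before deposit. The scale and centring are not stated in the table. Column medians lay between -0.009 and 0.022.

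The 18511 probe sets with exactly 1 gene symbol gave 18166 genes, by the mean for the 291 genes with several probe sets, of which 74 had probe sets correlating below 0. Probe sets with several symbols (575) or none (10403) were left out of the comparisons. limma 3.58.1 (R 4.3.3) was fitted to all 30 arrays with 1 mean per group (25 residual and 3.71 prior degrees of freedom), two-sided, with Benjamini-Hochberg adjustment over all genes; every adjusted p is from this fit or, where said, from the fit without rats 139 and 95. The fit was also run on simulated data with 1 SD per gene in all groups and no odd rats. That run cannot show how unequal spread or the odd rats affect the calls. Precision is limited by 6 arrays a group, and the labels name no batch.

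Members and gene lists were chosen with earlier results of these data known, and the ribosomal, translation, proteasome and odorant receptor lists after the values were seen. Named genes are, by rule, the 10 largest called rises and falls of each fit, the 8 and 8 non-overlapping genes with the largest difference, up to 4 called members of each list and a set followed whatever the result, of which the text names a part. Pcna, the members named to spell out a count of 5 or fewer, Rpl3, Eif4e, Psmc2 and Sesn1 were chosen after their values were seen. Promoters were searched in RefSeq sequences of build GRCr8. Alternatives were other fits, scaling, filters and left-out arrays.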

Additional observations from a re-analysis of the deposited data

Results flagged for a closer look

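For each of the text's genes and listed gene groups, the highest and lowest rat of each resection group was set against the other 5. A rat was picked out where its gap to the nearest of them exceeded 0.625 of the group's range, Dixon's critical value for 6 rats. Of 304 groups of 6 values 66 had such a rat, and chance alone picks about 1 independent group in 20. Part of the genes was named for calls made without rats 139 and 95, and the genes move together, so that rate is no measure for this count. Rat 139 accounted for 34 of the 66 and rat 95 for 27. These values are given as they stand, with no explanation.

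PH70 rat 139 was far below the other PH70 rats in Rfc4 (-0.24), Mcm6 (0.00), Tyms (0.02), Rrm2 (-0.05), Mad2l1 (0.08), Top2a (-0.11), Mki67 (-0.26), Ccna2 (-0.22), Pkmyt1 (-0.06), Uhrf1 (0.01), E2f7 (-0.15), Tfdp1 (0.05), Foxm1 (-0.14), Rbl1 (0.00), Fanci (0.02), H2ax (-0.09), Ccnd1 (-0.75), Nhp2 (-0.15), Abcb1b (-0.27), Txnrd1 (-0.06) and Gclc (-0.52). It was far above them in Stac3 (-0.73), Pink1 (-0.03), Edar (0.47), Cd4 (0.51), Colec11 (0.38) and Gas6 (1.63). Among list means it was low for replication (-0.08), deoxynucleotide synthesis (-0.04), S and G2/M regulators (-0.15), E2F and MuvB regulators (-0.04), repair (-0.07) and p53 targets (0.03) and high for macrophage markers (0.41).

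PH30 rat 95 was far above the other PH30 rats in Umps (0.51), E2f7 (1.13), Rbl1 (2.10), Chek1 (1.14), Fanci (1.19), Cdk4 (0.65), Cdkn1a (1.71), Ccng1 (1.57), Nop58 (1.19), Hspa8 (0.60), Rpl3 (0.77), Eif4e (0.51), Elovl6 (1.86) and Glud1 (0.10). It was far below them in Serpina6 (-1.20), Met (-0.36), Dnase1l3 (-0.67), Clec4f (-0.82), Cyp2j3 (-0.97), Sesn1 (-0.53), Rxra (-0.62), Thrb (-0.53), Cry2 (-0.07), Tef (-0.28) and Efna1 (-0.91). Among list means it was high for p53 targets (0.38) and low for growth factors (-0.27).

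The remaining 5 values belong to other rats. Scap was -0.34 in PH70 rat 37 and Cyp7a1 was 1.76 in PH70 rat 58. Hgf was -0.96 in PH30 rat 99. The mean of the conjugation enzymes was -0.42 in PH70 rat 97, and that of the lipogenesis genes was -0.33 in PH70 rat 59.

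The 10978 probe sets with several gene symbols or none were not part of the comparison. In the same limma fit 34 of them were called, 25 higher and 9 lower in PH70. With both odd rats left out, 264 were higher and 135 lower.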

How the results depend on the processing

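The counts of calls followed the choice of arrays and of fit. In place of 413 genes (320 higher, 93 lower), limma called 2420 (1611 and 809) without rats 139 and 95, 2178 (1496 and 682) with array weights and 2664 (1659 and 1005) with robust regression. It called 2 (2 higher, 0 lower, and 2614 at an unadjusted p below 0.05) in the 12 arrays alone. That fit without rats 139 and 95, an alternative chosen after seeing the data, called 2583 (1683 and 900). Testing the 9083 more variable genes gave 630 (516 higher), with fewer genes in the adjustment. A robust prior, centring each array, and the most variable probe set kept the counts within 1.5 times. Leaving out each rat in turn gave 18 to 1911 calls, 17 to 1351 higher and 1 to 560 lower. The genes without overlap, 57 and 54, became 1377 and 701 without rats 139 and 95, and 68 to 543 and 76 to 327 with single rats left out. The cause of these changes was not tested. Of the 52 named genes called with all rats, all were called without the 2 rats and 2 in the 12 arrays alone. Only Alb and Hgf, neither of them called, changed sign: Alb stood at 0.00 with centred arrays and without PH30 rat 140 or PH70 rat 58, and Hgf at 0.01, 0.00 and 0.04 without PH30 rat 130, 95 or 98 and at 0.10 and 0.07 without PH70 rat 37 or 97. With single rats left out Alb ran from -0.02 to 0.00 and Hgf from -0.21 to 0.10. No paired analysis was possible because no rat number is shared between groups. Signal over background is not known for centred values.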

Other observations

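A further 9 gene lists had 0 calls in the limma fit of all rats, so the genes below, picked for their calls without rats 139 and 95, are given as a description. At an unadjusted p below 0.05 with all rats, 2 lipogenesis genes of 31 were higher and 7 lower, 4 of 27 zonation genes were lower and 0 higher, and 2 of 24 clock and glucocorticoid genes were lower and 0 higher. The counts higher and lower were 1 and 0 of 28 acute phase genes, 1 and 3 of 30 conjugation genes, 1 and 1 of 19 glucose and glycogen genes, 0 and 2 of 26 hepatocyte transcription factors, 2 and 2 of 26 hypoxia and redox genes, and 0 and 2 of 21 stellate cell and matrix markers. In the fit without rats 139 and 95, set against 8.87% higher and 4.45% lower over the whole array, calls up and down numbered 2 and 4 of the lipogenesis genes, 1 and 3 of zonation, 0 and 3 of the clock genes, 0 and 2 of acute phase, 1 and 1 of conjugation, 2 and 0 of glucose and glycogen, 1 and 4 of the hepatocyte factors, and 6 and 1 of hypoxia and redox. In that fit Taldo1 and Tkt, of the pentose phosphate pathway, were called higher at 0.33 ± 0.08 and 0.35 ± 0.11. Aass, of lysine breakdown, and Glud1, glutamate dehydrogenase, both of the amino acid list, were called higher at 0.60 ± 0.15 and 0.54 ± 0.10. Elovl6, which elongates fatty acids, was called higher at 0.85 ± 0.24, while Fads2, a desaturase, and Acly, which makes cytosolic acetyl-CoA, were called lower at -0.82 ± 0.26 and -0.65 ± 0.21.

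The nuclear receptors Rxra and Thrb were called lower in that fit at -0.44 ± 0.09 and -0.34 ± 0.09, and the clock genes Cry2 and Tef at -0.39 ± 0.11 and -0.38 ± 0.10. Gclc, of glutathione synthesis, was called higher at 0.65 ± 0.15 and Vegfa, the endothelial growth factor, lower at -0.41 ± 0.10. Among 21 stellate cell and matrix markers 3 were called lower, among them Col3a1 at -0.48 ± 0.14 and Colec11 at -0.43 ± 0.09. Efna1, an ephrin ligand, at -1.18 ± 0.16, Gas6, a ligand of TAM receptors, at -1.05 ± 0.18 and Arrdc3, an arrestin family member, at -1.02 ± 0.28 were among the largest falls of that fit. With all rats these 3 stood at -0.70 ± 0.24, -0.57 ± 0.26 and -0.83 ± 0.27, with adjusted p values of 0.11, 0.24 and 0.089 (limma).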
